A study of Homo sapiens with 7 samples.

Results

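The genes described here are 9 keratin genes, the filament genes by which pathologists tell epithelia apart. They comprise the ductal keratins KRT7, KRT8, KRT18 and KRT19, the intestinal keratin KRT20 and the basal keratins KRT5, KRT6A, KRT14 and KRT17, 9 of 20033 protein-coding genes. Each gene was given a window of its GENCODE release 44 gene body plus 10 kb either side, and every H3K4me1 interval that overlapped the window by at least 1 base was taken. By this rule 56 of 64843 intervals belonged to the keratin genes in the NC list and 50 of 92135 in the KMT2D-KD list. The term interval stands for a peak of the deposited lists, with enrichment over input DNA.

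The cells were SW1990, an established line of human pancreatic cancer. One group carried a negative control shRNA (NC) and the other an shRNA that knocks down KMT2D (KMT2D-KD), so both groups were shRNA-treated. ChIP was performed for KMT2D, EBF2 and H3K4me1 in each group, and 1 input library completed the 7 samples. Every target had 1 library per condition, so each difference below compares 2 libraries, has no replicate check and was given no test. The labels do not say from which of the groups the input came, and the level of KMT2D after knockdown was not analysed here.

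Keratins are the intermediate filament proteins of epithelial cells, and each filament is built from a type I chain paired with a type II chain. Simple, single-layered epithelia such as the pancreatic duct use the type II keratins KRT7 and KRT8 with the type I keratins KRT18 and KRT19, intestinal epithelium adds KRT20, and the basal layer of stratified epithelia uses KRT5 with KRT14. KRT6A and KRT17 are switched on in wounded or fast-growing epidermis. H3K4me1, the monomethylated lysine 4 of histone H3, marks enhancers and the flanks of active promoters, and KMT2D is one of the enzymes that write it.

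The sequences under the summits of several strong intervals are shown, each chosen so that the bases shown overlapped no exon. Such bases were taken because the comparison of the groups turns on intervals in introns and between genes. The intervals themselves could reach an exon. Each run gives the 200 bases around the summit (the position of highest enrichment) of a KMT2D-KD interval on the plus strand of hg38. Capitals mark letters that match one of the motifs described further on. The KRT7 window, chr12:52229600-52229799, lies upstream of the gene, the KRT8 window, chr12:52926923-52927122, and the KRT18 window, chr12:52951252-52951451, lie in introns, and the KRT19 window, chr17:41529963-41530162, lies upstream. The KRT5 window, chr12:52523263-52523462, lies upstream of the gene and the KRT14 window, chr17:41581182-41581381, lies beyond its 3′ end. The interval shown for KRT19 was the second strongest in its window, since the strongest lay in the neighbouring gene KRT15, and that shown for KRT18 was also the second strongest, since the strongest lay over a KRT8 UTR.
KRT7: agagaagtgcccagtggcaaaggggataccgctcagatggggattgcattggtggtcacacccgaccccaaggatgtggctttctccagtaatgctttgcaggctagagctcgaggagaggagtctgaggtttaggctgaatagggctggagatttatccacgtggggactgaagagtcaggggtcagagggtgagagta
KRT8: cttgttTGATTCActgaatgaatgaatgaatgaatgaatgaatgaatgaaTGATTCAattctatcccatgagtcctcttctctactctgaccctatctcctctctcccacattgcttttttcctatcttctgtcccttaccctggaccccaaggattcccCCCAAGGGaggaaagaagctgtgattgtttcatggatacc
KRT18: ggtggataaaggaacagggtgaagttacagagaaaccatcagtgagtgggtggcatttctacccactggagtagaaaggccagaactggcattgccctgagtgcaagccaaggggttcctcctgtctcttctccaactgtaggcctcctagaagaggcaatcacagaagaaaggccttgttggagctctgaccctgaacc
KRT19: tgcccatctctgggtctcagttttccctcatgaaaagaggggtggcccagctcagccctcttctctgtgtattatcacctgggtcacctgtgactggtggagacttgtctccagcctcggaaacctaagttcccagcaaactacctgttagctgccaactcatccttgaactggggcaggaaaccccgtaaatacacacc
KRT5: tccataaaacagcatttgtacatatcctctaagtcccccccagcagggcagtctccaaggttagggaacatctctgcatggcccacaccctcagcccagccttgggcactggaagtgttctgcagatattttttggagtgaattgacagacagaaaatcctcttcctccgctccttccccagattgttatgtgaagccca
KRT14: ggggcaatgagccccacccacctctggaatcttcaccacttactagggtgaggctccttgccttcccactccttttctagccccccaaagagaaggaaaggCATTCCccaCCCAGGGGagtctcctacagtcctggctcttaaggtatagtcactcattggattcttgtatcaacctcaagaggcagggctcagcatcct

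H3K4me1 intervals were dense around KRT7, KRT8 and KRT18, fewer around KRT19 and KRT5, few around KRT20, KRT6A and KRT14, and there was none around KRT17 in either group. Summed and given per length, the ductal windows were covered to 19.7% in NC and 29.0% in KMT2D-KD of their 140 kb. The basal windows, 102 kb in all, were covered to 4.47% (NC) and 4.67% (KMT2D-KD). The KRT20 window of 29.4 kb was covered to 2.85% and 2.72%. The covered share is the fraction of bases of a window that lie under an interval, and over all protein-coding genes its median was 0.373% in NC and 1.03% in KMT2D-KD. At least 1 interval was present at 8 of the 9 keratin genes in each list, against 55.6% of all protein-coding genes in NC and 67.7% in KMT2D-KD.

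**Figure D1:**
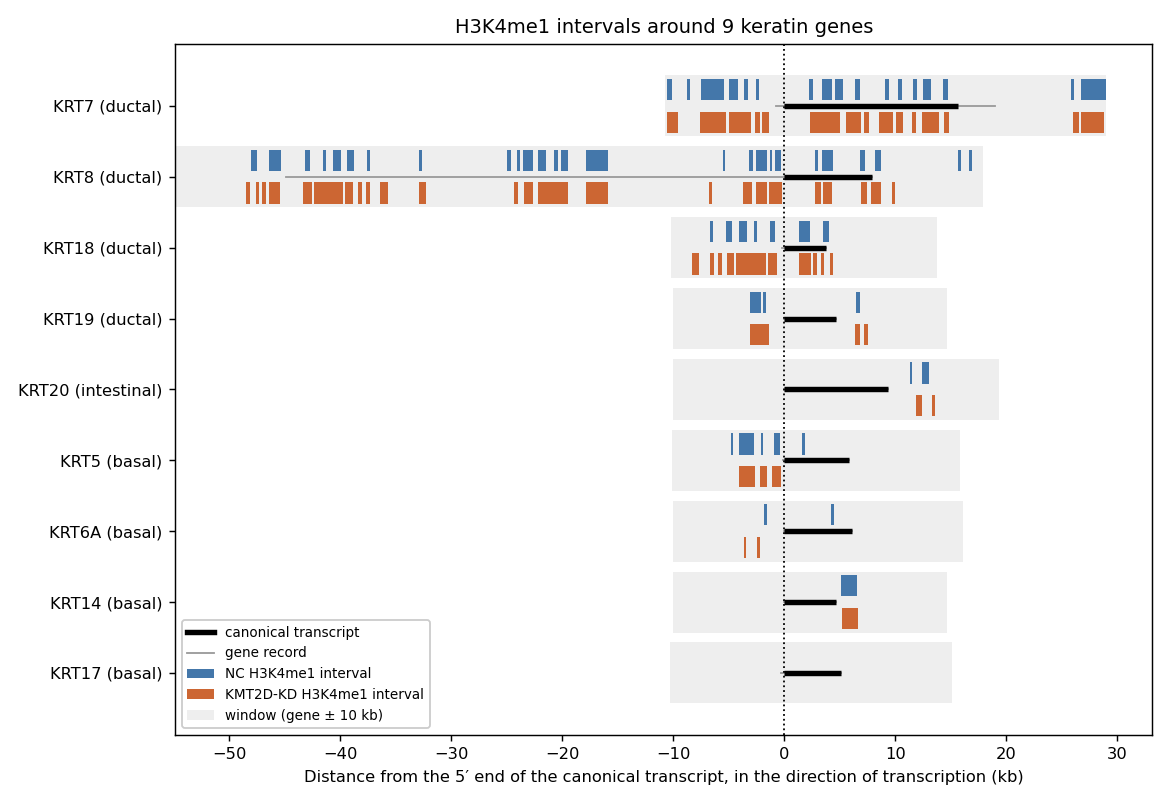
H3K4me1 intervals in the window of each of the 9 keratin genes, drawn by distance in kb from the 5′ end of the canonical transcript in the direction of transcription (blue above, NC; orange below, KMT2D-KD; 1 library each). Intervals crowd the KRT7, KRT8 and KRT18 windows, lie on both sides of KRT19, mostly upstream of KRT5 (1 NC interval is intronic) and beyond the 3′ ends of KRT20 and KRT14, and are absent from the KRT17 window.

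In the map of the intervals, those of NC and KMT2D-KD mostly lie at the same distances from the gene start, with longer stretches in KMT2D-KD at the ductal genes. The order of the covered shares was KRT7, KRT8, KRT18, KRT5, KRT19, KRT14, KRT20, KRT6A and KRT17 in NC. In KMT2D-KD KRT18 stood above KRT8, while the other genes held their places. The groups of keratins were not fully apart: KRT5 had 10.1% in NC and 10.9% in KMT2D-KD, and KRT19, the least covered ductal gene, had 6.68% and 10.4%. With 1 library per condition, no neighbours in this order could be shown to differ.

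KRT7, the keratin used with KRT20 to tell ductal from intestinal carcinomas, had 17 NC and 15 KMT2D-KD intervals (gene at chr12:52232520-52252186, plus strand). They covered 28.9% of its window in NC and 45.0% in KMT2D-KD. Only 6 protein-coding genes had a higher share in NC, and 1 had a higher share in KMT2D-KD. The intervals ran from 10 kb upstream, through the introns of the gene, to an intron of its neighbour KRT86. The nearest NC interval lay 2242 bases downstream of the canonical 5′ end and the nearest KMT2D-KD interval 1363 bases upstream, so none covered that start.

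The strongest NC interval at KRT7 was chr12:52228284-52229067, upstream of the gene, with a fold enrichment over input of 6.48, 25 fragments at the summit (95% Poisson interval 16.2 to 36.9) and a −log10 q of 11.0. A single KMT2D-KD interval, chr12:52228260-52230266, spanned it and its neighbour, with a fold enrichment of 9.84, 30 fragments (20.2 to 42.8) and a −log10 q of 19.8. This is the interval whose summit sequence is shown for KRT7. Next to it, at chr12:52230616-52231002, the fold enrichment was 3.43 in NC, from 13 fragments (6.92 to 22.2), and 9.25 in KMT2D-KD, from 27 fragments (17.8 to 39.3). The ratio of 2.70 was the largest at any keratin place, and the counting intervals of the fragments still overlapped. An intronic place, chr12:52243290-52243971, went the same way, with fold enrichments of 5.35 and 9.05. The opposite was seen at chr12:52225663-52227950, further upstream, where the fold enrichment was 6.44 in NC and 4.25 in KMT2D-KD.

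KRT8, the type II keratin of nearly all simple epithelia, had 26 NC and 24 KMT2D-KD intervals (gene at chr12:52897187-52949954, minus strand). Its window of 72.8 kb was covered to 19.9% in NC and 27.8% in KMT2D-KD. The gene record is 52.8 kb long because it holds far upstream starts, whereas the canonical transcript spans 7.89 kb. Over the canonical transcript plus 10 kb either side, the shares were 18% and 22.5%. Upstream of the canonical 5′ end, the nearest NC interval began after 305 bases and the nearest KMT2D-KD interval after 225.

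The highest −log10 q at any of the 9 genes was found in an intron of the KRT8 gene record, at −21947 bases from the canonical 5′ end. There 3 NC intervals within chr12:52924544-52927246 corresponded to 1 KMT2D-KD interval, chr12:52924610-52927284. The NC interval with the highest −log10 q, 10.3, had a fold enrichment of 6.70 and 22 fragments (13.8 to 33.3), and another of the 3 had a fold enrichment of 6.76. The KMT2D-KD summit had 10.6, 34 fragments (23.5 to 47.5) and 23.2, higher than 99.8% of the KMT2D-KD list. The KRT8 sequence shown above is that of this summit. Its short tandem repeat of gaat units stands between a pair of TGATTCA words, which match the relaxed AP-1 pattern given further on. The neighbouring place, chr12:52927685-52928641, had fold enrichments of 4.37 in NC and 9.60 in KMT2D-KD, a ratio of 2.20.

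The same KMT2D-KD interval covered a transcript start. RefSeq gives KRT8 a 5′ end at position 52926469 of chromosome 12, and the 250 bases before it, chr12:52926470-52926719, lay inside the KMT2D-KD interval and partly inside the NC interval chr12:52926539-52927246. They are shown on the minus strand as transcribed, from the RefSeq table on GRCh38.p14, because they are the only keratin promoter bases among those at hand that carried H3K4me1. Capitals mark the EBF core letters.
KRT8 upstream: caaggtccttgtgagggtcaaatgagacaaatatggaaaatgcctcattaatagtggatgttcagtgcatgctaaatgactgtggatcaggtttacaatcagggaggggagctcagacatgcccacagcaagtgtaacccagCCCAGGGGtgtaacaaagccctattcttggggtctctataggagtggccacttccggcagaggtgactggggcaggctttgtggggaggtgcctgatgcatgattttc
The table held 3 of the 9 genes, and the upstream bases of the other two, KRT5 and KRT20, touched 0 intervals in either list.

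Most annotated starts of the keratin genes lay outside the intervals. Of the 18 KRT8 transcript starts, 2 were inside an NC interval and 5 inside a KMT2D-KD interval. For KRT7 the counts were 2 and 2 of 13, and for KRT18 0 and 2 of 7. No start of KRT19, KRT20, KRT5, KRT6A, KRT14 or KRT17 was inside an interval. The share over the starts of all genes was not determined, so these counts cannot be read as a trait of the keratin genes.

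KRT18, the type I partner of KRT8 and its neighbour, had 7 NC and 10 KMT2D-KD intervals (gene at chr12:52948871-52952906, plus strand). Its window overlaps that of KRT8, so all these intervals are also among those of KRT8 and were counted once in the ductal group. The covered share was 16.3% in NC and 31.1% in KMT2D-KD, a ratio of covered bases of 1.90, the highest of the 9 genes. A single KMT2D-KD interval of 2653 bases, chr12:52944797-52947449, took in 2 NC intervals upstream of KRT18. It reached a fold enrichment of 7.69 with a −log10 q of 11.7, against at most 6.56 and 8.95 for the NC intervals.

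Inside KRT18 the intronic place chr12:52950448-52951504 had a fold enrichment of 2.98 in NC, from 13 fragments (6.92 to 22.2), and 6.03 in KMT2D-KD, from 26 fragments (17 to 38.1). Its summit sequence is shown for KRT18. Near the 3′ end of the gene, at chr12:52952414-52953126, the fold enrichment was 5.17 in NC and 3.43 in KMT2D-KD, and upstream, at chr12:52943843-52944610, it was 4.37 and 2.82. Within the 24.0 kb around KRT18, places thus differed in both directions.

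KRT19, a type I keratin of ducts, had 3 intervals in each list (gene at chr17:41523617-41528308, minus strand). They covered 6.68% of the window in NC and 10.4% in KMT2D-KD. The strongest lay in the neighbouring gene KRT15, over the intron and UTR at chr17:41521468-41521913, with fold enrichments of 6.95 and 9.06 and −log10 q of 9.56 and 15.1. Upstream of KRT19, the KMT2D-KD interval chr17:41529713-41531426 met 2 NC intervals. Its fold enrichment was 5.13 at its summit, 41530063, which lay inside the NC interval with a fold enrichment of 3.40. The other NC interval reached 5.35 at its summit, 41530699, so the highest values of the lists came from different positions.

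KRT20, the intestinal keratin, had 2 intervals in each list, all beyond its 3′ end and at least 11276 bases from its 5′ end (gene at chr17:40875889-40885242, minus strand). The strongest had −log10 q values of 2.89 (NC) and 3.40 (KMT2D-KD), under the list medians of 3.52 and 4.02. The fold enrichments at the place found in both lists were 3.75 and 4.07, from 11 fragments (5.49 to 19.7) and 10 fragments (4.8 to 18.4). KRT12 lies in the same window, and all the KRT20 intervals also lie in the KRT12 window. That window held 7 NC and 6 KMT2D-KD intervals, covering 16.9% and 13.0%, so coverage at KRT20 cannot be told apart from that at KRT12.

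KRT5, the type II keratin of basal cells, differed from the other basal genes, with 5 NC and 3 KMT2D-KD intervals (gene at chr12:52514575-52520530, minus strand). The covered shares of 10.1% and 10.9% were exceeded by 448 protein-coding genes in NC and by 1051 in KMT2D-KD. The nearest NC interval lay 391 bases upstream of the canonical 5′ end, and the nearest one in KMT2D-KD 291 bases upstream. This place, chr12:52520685-52521493, had fold enrichments of 5.50 and 6.74 and was the strongest in NC, with a −log10 q of 7.70. The strongest KMT2D-KD interval, chr12:52523050-52524512, whose summit sequence is shown, lay nearly 3 kb upstream. Its fold enrichment was 7.12, from 28 fragments (18.6 to 40.5), against 4.79 in NC, from 21 fragments (13.0 to 32.1).

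KRT14, the type I partner of KRT5, had 1 interval in each list and none near its start (gene at chr17:41582279-41586895, minus strand). It lay beyond the 3′ end, over 5 kb from the 5′ end, at chr17:41580369-41581787 in NC and chr17:41580223-41581668 in KMT2D-KD. The fold enrichments were 5.24, from 17 fragments (9.90 to 27.2), and 7.23, from 24 fragments (15.4 to 35.7). Its KMT2D-KD summit is the KRT14 sequence shown. The same interval also lies in the window of the neighbouring KRT9, where it covers 5.41% in NC and 5.51% in KMT2D-KD. Coverage at KRT14 thus cannot be told apart from that at KRT9.

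KRT6A, an inducible epidermal keratin, had 2 intervals in each list, and none of them overlapped between NC and KMT2D-KD, whereas 69.7% of all NC and 46.6% of all KMT2D-KD intervals overlapped one of the other list (gene at chr12:52487176-52493257, minus strand). The strongest were chr12:52494821-52495117 in NC, with a −log10 q of 2.85, and chr12:52495423-52495720 in KMT2D-KD, with 4.76, below and above the respective list medians of 3.52 and 4.02. KRT17, also inducible, had 0 intervals in its 25.4 kb window (gene at chr17:41619442-41624842, minus strand), and the nearest intervals were 21183 (NC) and 21301 (KMT2D-KD) bases from its canonical 5′ end. A listed interval needs enough fragments to pass the caller, so at these depths weaker H3K4me1 at KRT17 was not detectable.

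**Figure D2:**
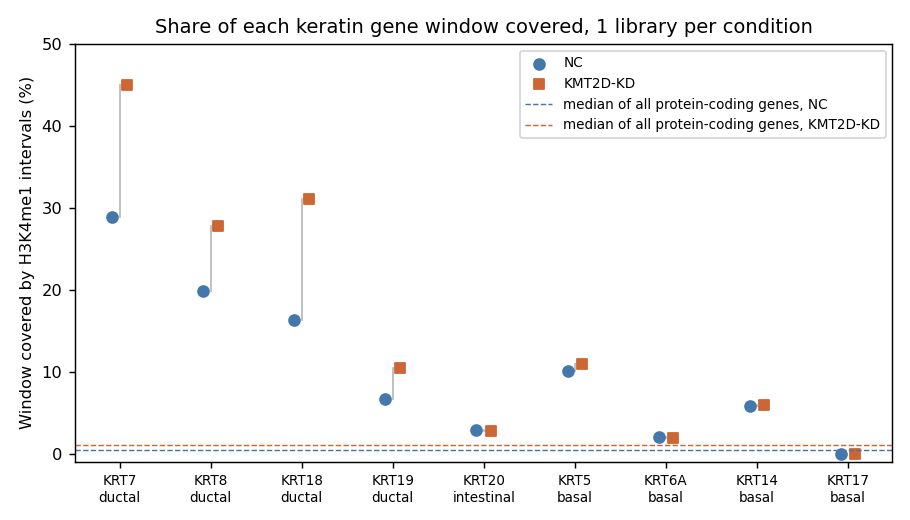
Share of each keratin gene window covered by H3K4me1 intervals (%), with 1 point per condition and a line joining the NC and KMT2D-KD values, and dashed lines at the medians over all protein-coding genes. The KMT2D-KD point stands above the NC point at KRT7, KRT8, KRT18 and KRT19, whereas both points nearly coincide at KRT20 and at the basal genes.

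The plot of covered shares gives the comparison between the groups of cells by gene. The ratio of covered bases, KMT2D-KD over NC, was 1.56 at KRT7, 1.39 at KRT8, 1.90 at KRT18 and 1.56 at KRT19. It was 0.955 at KRT20, 1.08 at KRT5, 0.925 at KRT6A and 1.02 at KRT14, and KRT17 had none to compare. The ductal ratios thus lay above all the others. Over the 10559 protein-coding genes with intervals in both lists, the median ratio was 1.63 (quartiles 1.16 to 2.45), and 82.8% had more covered bases in KMT2D-KD. The ductal ratios were therefore near the ratio of the whole lists, and those of KRT20 and the basal genes below the lower quartile. By a 2-fold criterion, 0 of the 8 keratin genes with an interval in either list were higher and 0 lower in KMT2D-KD. Of all 14150 protein-coding genes with an interval in either list, 48.3% were at least 2-fold higher and 6.30% at least 2-fold lower. These shares count every gene with intervals in only 1 list as changed. All 8 keratin genes had intervals in both lists, against 10559 of the 14150, so the shares are not a like baseline for them.

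Fragments per interval were recovered from the deposited fold enrichment and p-value, and the recovered depth was 9.89 (NC) and 9.29 (KMT2D-KD) fragments per 1000 bases. The KMT2D-KD library had 0.939 times the NC depth, and the lists covered 49.7 Mb in KMT2D-KD and 32.3 Mb in NC, a ratio of 1.54. The part of depth in the covered lengths was not tested. When the KMT2D-KD list was restricted to its 64843 strongest intervals, as many as in NC, the ductal windows were covered to 27.0% and the basal windows to 4.48%. In NC the shares were 19.7% and 4.47%. This cut made the numbers of intervals equal and not their covered length. The covered length of the whole cut list is not given here, so these shares cannot be set against it.

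The number of ductal intervals went down while their covered length went up. There were 46 ductal intervals in NC, covering 27.6 kb, and 42 in KMT2D-KD, covering 40.6 kb. Median widths were 417 (NC) and 679 (KMT2D-KD) bases, and 4 NC intervals and 14 KMT2D-KD intervals were at least 1 kb wide. Over the whole lists 8.50% and 11.4% were that wide, so the NC count was near its list and the KMT2D-KD count above it, and the median widths were 369 and 375 bases. At 6 of the 33 ductal places found in both lists, several NC intervals, 14 in all, corresponded to a single KMT2D-KD interval. At 0 of them the reverse was seen. Of all 39989 places in both lists, several NC intervals met a single KMT2D-KD interval at 3757, and the reverse held at 2011. The basal genes had 8 NC intervals (4.57 kb) and 6 KMT2D-KD intervals (4.77 kb).

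**Figure D3:**
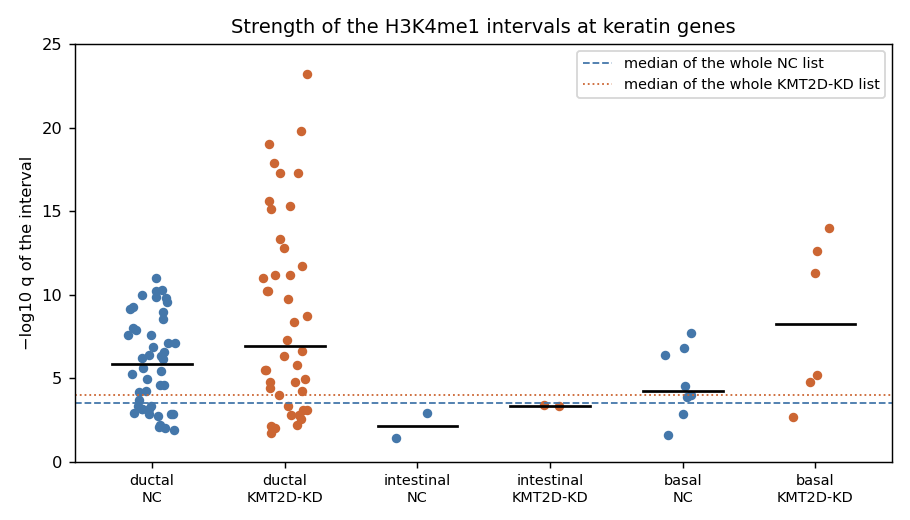
−log10 q of every H3K4me1 interval at the ductal, intestinal and basal keratin genes in NC and KMT2D-KD (1 point per interval, bar at the group median, dashed and dotted lines at the medians of the whole lists). Ductal points reach 11.0 in NC and 23.2 in KMT2D-KD, and basal points 7.70 and 14.0, while the 4 KRT20 points stay below 4.

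The intervals at ductal and basal keratins were also stronger than most of the list. In NC the median −log10 q was 5.87 for ductal and 4.25 for basal intervals, against 3.52 over the list, and in KMT2D-KD it was 6.94 and 8.26 against 4.02. The plot of −log10 q shows that the ductal intervals of KMT2D-KD spread from values under 2 to 23.2, so only part of them was strong. A −log10 q of at least 10 was reached by 3 of 56 keratin intervals in NC and by 20 of 50 in KMT2D-KD. Over the whole lists the shares were 2.54% and 7.23%. Of the 20, 17 were at ductal and 3 at basal genes, namely 2 at KRT5 and 1 at KRT14.

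The places named by the lists were largely common to both. An interval of the other list overlapped 46 of the 56 NC intervals (82.1%, exact binomial 95% interval 69.6% to 91.1%), and the same held for 69.7% of all NC intervals. Of the 50 KMT2D-KD intervals 38 were shared (76.0%, 61.8% to 86.9%), against 46.6% of the whole list. For the ductal genes the shares were 41 of 46 and 33 of 42, and for the basal genes 4 of 8 and 4 of 6. These binomial intervals cover counting error only, and neighbouring intervals of 1 window are not independent.

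Overlapping intervals of both lists were joined into places to compare their strength. Within a place, the interval of highest −log10 q of each list was taken, and the summits of these intervals could lie apart. The 9 genes had 60 places, 38 in both lists, 10 in NC only and 12 in KMT2D-KD only. Over all 108850 places 36.7% were in both lists, 18.1% in NC only and 45.2% in KMT2D-KD only. At 28 of the 38 the fold enrichment was higher in KMT2D-KD, and at 32 more bases were covered. Among all 39989 places in both lists, 66.0% had the higher fold enrichment and 65.9% more covered bases in KMT2D-KD. The ratio of fold enrichments had a median of 1.22 at the keratin places, within a range of 0.647 to 2.70, and 1.13 over all places.

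**Figure D4:**
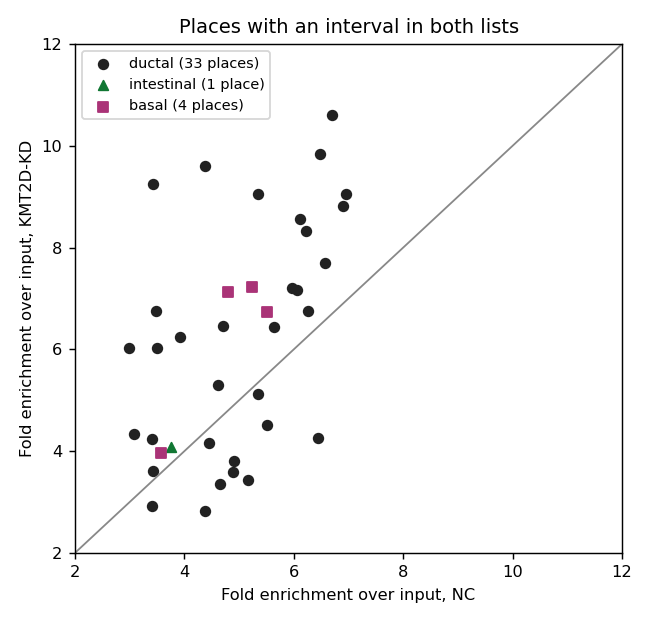
Fold enrichment over input at the interval of highest −log10 q of each keratin place found in both lists, NC on the horizontal and KMT2D-KD on the vertical axis (circles ductal, triangle intestinal, squares basal; the line marks equal values). Of the 38 points 28 lie above the line, among them all 4 basal ones, and ductal points lie on both sides.

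As the plot of fold enrichments shows, the 33 ductal places scattered widely, with 23 above equality and 10 below. A fold enrichment at least 1.5 times higher in KMT2D-KD was found at 9 of the 38 places, all of them ductal, and one at least 1.5 times lower at 3, also ductal. Over all places these shares were 15.4% and 3%. The 4 basal places, 3 at KRT5 and 1 at KRT14, had ratios of 1.11 to 1.49. At 0 of the 38 places did the Poisson intervals of the fragment counts lie apart. Over all places they lay apart at 0.0650%, higher in KMT2D-KD, and at 0.0325%, lower, so a count of 0 is nothing particular to the keratin places.

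The input background moved with the location. In the deposited values the background at keratin summits had a median of 1.44 times the lowest of the list in NC and 1.48 times in KMT2D-KD, against 1.13 and 1.08 over all intervals. Within the keratin windows it reached 2.34 and 2.48 times. Its part in the strength of the intervals was not tested.

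KMT2D and EBF2 themselves had no interval in any keratin window. Their lists were short, with 238 (NC) and 318 (KMT2D-KD) intervals for KMT2D, and 293 and 311 for EBF2. The KMT2D list reached 0.569% of protein-coding gene windows in NC and 0.669% after knockdown, and the EBF2 list 0.589% and 0.734%. The intervals nearest to any keratin gene were 14.2 Mb and 1.60 Mb away for KMT2D, and 2.73 Mb and 1.60 Mb for EBF2. With lists this short, 0 of 9 genes says little about binding at the keratin genes.

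Sequence that occurs elsewhere in the genome was checked because the keratin family arose by duplication. The count does not tell copies in other keratin genes from other repeated sequence. Of the 50-base words of the gene bodies, 21.9% at KRT6A, 14.9% at KRT17 and 13.5% at KRT14 occurred elsewhere in hg38. The shares were 9.73% at KRT8, 9.46% at KRT18 and 5.32% at KRT19, and 1.51% to 2.47% at KRT5, KRT20 and KRT7. KRT6A is a near copy of KRT6B and KRT6C, and KRT14, KRT16 and KRT17 resemble each other, so their values are uncertain where reads could have been discarded or placed elsewhere. No keratin interval consisted mainly of repeated words, the highest share being 26.1% in NC and 34.6% in KMT2D-KD, both at KRT8.

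The letters under the summits were searched for short motifs on both strands in 200-base windows. CCCNNGGG, the core of the site bound by the EBF family, was present at 7 of 56 NC intervals (12.5%, 5.18% to 24.1%) and 7 of 50 KMT2D-KD intervals (14.0%, 5.82% to 26.7%). All intervals of the lists held it at 3.74% and 4.33%. The sequences shown for KRT8 and KRT14 each hold one. The median GC content of the keratin windows was 49.5% in NC and 51.2% in KMT2D-KD, against 44% and 46.0% over the lists, and the part of base composition in the motif shares was not tested.

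The other motifs were no more common at the keratin genes than in the lists. TGANTCA, the AP-1 site, was present at 3 NC intervals and 1 KMT2D-KD interval, the KRT8 window shown, against 8.06% and 7.78% of the lists. GGAATG, the TEAD site, was present at 6 and 2, against 12.4% and 12.1%. TGTTTAC, bound by FOXA factors, was present at 0 of 56, with an exact binomial upper bound of 6.38%, and at 1 of 50, at KRT20, which at these numbers could not be told from the 3.16% and 2.74% of the lists. AACCNGGTT, bound by the epithelial GRHL factors, was present at 0 in both, against 0.184% and 0.165%. A match is a description of the letters and not a site of binding.

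Among the other 46 keratin genes, coverage was concentrated at a few. The highest shares were those of KRT10, an epidermal type I keratin, with 29.5% in NC and 35.8% in KMT2D-KD, of KRT81 with 21.1% and 30.9%, and of KRT86 with 17.1% and 25%. KRT81 and KRT86 are hair keratins next to KRT7, and the KRT86 window overlaps that of KRT7. Of the 17 hair keratins 11 had an NC interval and 11 a KMT2D-KD interval, 9 of them both. Of the 29 remaining keratins the numbers were 14 and 14, with 11 in both and 12 in neither. Of all protein-coding genes 55.6% had an NC interval and 67.7% a KMT2D-KD interval. By the 2-fold rule 2 of the 13 hair keratins with an interval in either list were higher in KMT2D-KD and 3 lower, and of 17 such remaining keratins 5 were higher and 3 lower, against 48.3% and 6.30% of all genes.

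**Figure D5:**
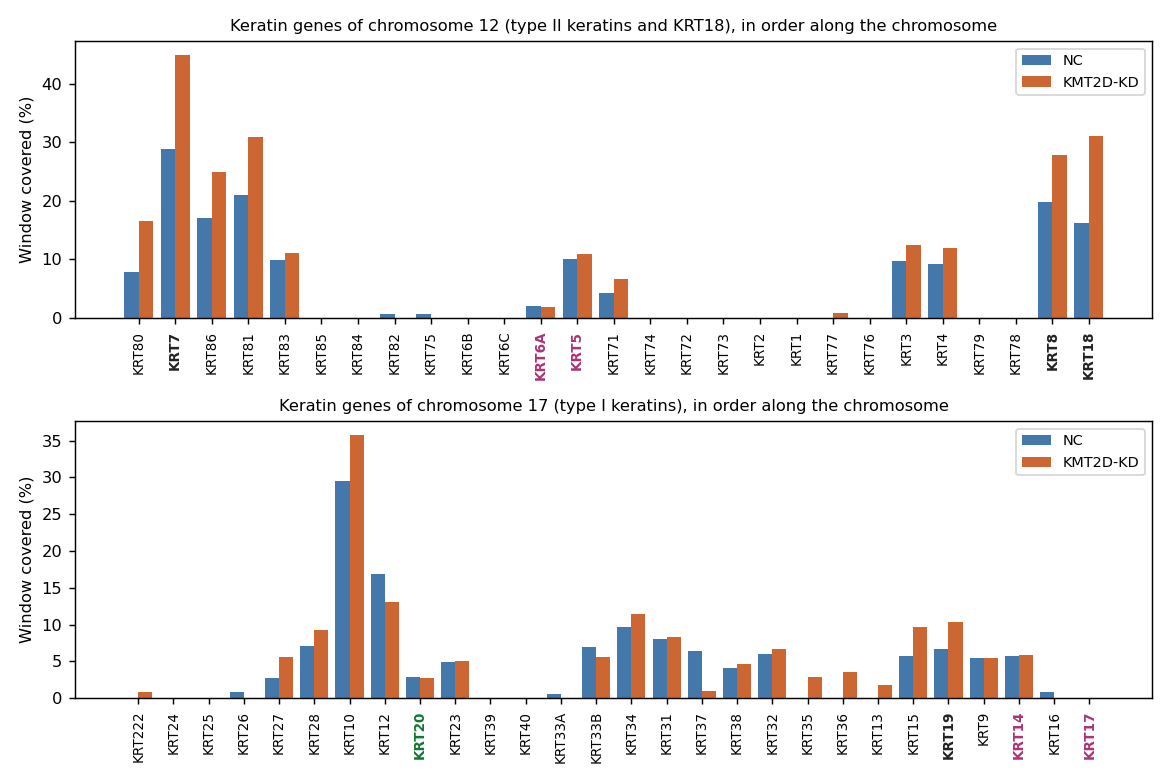
Share of the gene window covered by H3K4me1 intervals (%) for every type I and type II keratin gene, in chromosomal order within the clusters of chromosomes 12 and 17 (blue NC, orange KMT2D-KD; bold names black ductal, green intestinal, purple basal). Coverage is highest at both ends of the chromosome 12 cluster, at KRT7 with its hair keratin neighbours and at KRT8 and KRT18, and at KRT10 on chromosome 17.

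The plot along the clusters shows that the ductal type II genes stand near the ends of the chromosome 12 cluster, KRT7 at one and KRT8 with KRT18 at the other. Between them, KRT5 with 10.1% in NC stood next to KRT71 with 4.34% and KRT6A with 2.05%. On chromosome 17 all 3 NC and all 3 KMT2D-KD intervals of the KRT19 window also lie in the KRT15 window. That window held 3 and 4 intervals, covering 5.73% and 9.65%, so coverage at KRT19 cannot be told apart from that at KRT15. KRT16 and KRT17 at the end of the cluster had 0.789% and 0% in NC and none in KMT2D-KD.

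The labelled cell type was checked against marker genes. All 9 epithelial and ductal markers had an H3K4me1 interval in KMT2D-KD and 8 in NC, the exception being EPCAM, with 3 intervals in KMT2D-KD only. Of all protein-coding genes 67.7% had one in KMT2D-KD and 55.6% in NC. Since 4 of the epithelial and ductal markers are the ductal keratins themselves, the check is only partly independent. Markers of other cells were not bare. All 2 endothelial and 2 mesenchymal markers had an interval in each list, and of 3 blood markers 1 had one in NC and 2 in KMT2D-KD. The presence of an interval thus did not set the epithelial markers apart. PTPRC was covered to 0.777% and 1.41%, CDH5 to 4.48% and 6.71%, and PDGFRB, a mesenchymal gene, to 11.7% in NC with a ratio of 1.72. An interval of H3K4me1 does not measure expression.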

How the data were processed

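H3K4me1, KMT2D and EBF2 ChIP-seq peak lists of SW1990 cells were used as deposited, 1 library per target and condition, with groups taken from the sample titles. The submitters' processing notes name BWA, MACS2, HOMER and hg38 without versions, and each list was called against the input without stated pooling. For each interval the authors deposited a fold enrichment over input, which is a ratio, and both a p-value and a q-value as −log10. How duplicate and multiply mapped reads were treated is not given in the sources used here. No interval ran past the end of an hg38 chromosome.

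From these values the fragments at each summit were recovered from fold enrichment = (fragments + 1) / (background + 1) and the Poisson p-value, and 64839 of 64839 NC and 92129 of 92130 KMT2D-KD intervals gave whole numbers within 0.001 of the deposited −log10 p. Exact Poisson and binomial intervals (95%) cover counting error only. No test was made, since 1 library per condition leaves no replicate error. A gene was called at a 2-fold difference in covered bases, a strong interval at a −log10 q of at least 10. Named were the 9 genes with their strongest interval per list, the 3 most covered other keratins and the 2 most covered genes of each further list. Other places and genes named (the ones with the largest ratios, those next to the members, the marker genes given as examples) were chosen after their values were seen. Members and lists were chosen with earlier results of these data known. Python 3.11.15, numpy 2.4.6, pandas 2.3.3, scipy 1.17.1 and pysam 0.24.0 were used, and the recovery was tested on simulated data. Alternatives are given in the closing section.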

Additional observations from a re-analysis of the deposited data

How the results depend on the processing

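Of 56 alternative values for counts, shares and covered shares, 40 stayed within 1.5 times the reported count or within the spread allowed for a share, and 16 moved. The share of shared intervals, higher in NC as reported, was higher in KMT2D-KD under 2 alternatives, namely within 1 kb and with lists of equal length (75% in NC, 81.0% in KMT2D-KD). Merging intervals within 1 kb gave 23 (NC) and 15 (KMT2D-KD) ductal intervals, 5 and 3 basal ones, and 1 and 1 at KRT20. With 20 kb either side KRT20 had 7 and 4, and at a −log10 q of at least 3 it had 0 and 2. Counting an interval as shared within 1 kb gave 92.9% in NC and 96.0% in KMT2D-KD, and requiring the overlap to cover the larger part of the counted interval gave 52.0% in KMT2D-KD. With the canonical transcript as gene body the ductal windows were covered to 17.1% and 27.7%. With lists cut to equal length by −log10 q, the KMT2D-KD shares were 27.0% for ductal and 4.48% for basal windows. No paired analysis was possible because each condition had 1 library and no test was made.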

Other observations

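Desmosomes anchor keratin filaments at the cell membrane, and plakins link filaments to them. Of 18 desmosome and plakin genes 12 (NC) and 13 (KMT2D-KD) carried an H3K4me1 interval, against 55.6% and 67.7% of all protein-coding genes, with median covered shares of 1.19% and 1.74%. Of the 14 with an interval in either list 5 were at least 2-fold higher in KMT2D-KD and 1 lower, against 48.3% and 6.30% of all genes. The most covered in NC were PKP1 (7.96%), a plakophilin, and MACF1 (7.62%), a plakin that also binds microtubules and actin. In KMT2D-KD they were JUP (16.0%, against 6.35% in NC), which encodes plakoglobin, and PKP1 (13.4%). The desmosomal cadherins were sparsely covered, with DSG2 at 0.963% and 1.73% and 0% in both lists at DSC1, DSC2, DSG1 and DSG4.

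Of 10 other cytoplasmic intermediate filament genes 4 (NC) and 5 (KMT2D-KD) carried an interval, against the same 55.6% and 67.7%. The most covered in both were GFAP, an astrocyte filament gene (6.96% and 11.9%), and INA, a neuronal one (6.23% and 4.69%). VIM, the mesenchymal filament gene vimentin, was covered to 0% in NC and 0.876% in KMT2D-KD. These are values of 1 library per condition, and no difference was tested.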
